A study of Rattus norvegicus with 7 samples.

Results

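The genes described here are 10 markers of colonic crypt stem cells and targets of Wnt signalling, named by symbol: Lgr5, Ascl2, Olfm4, Cd44, Axin2, Ephb2, Ephb3, Sox9, Lrig1 and Rnf43. Of these, 8 had a row among the 16468 genes of the RNA table, and all 8 reached a level of 1 FPKM in one library or both, FPKM being fragments per length of transcript and size of library. Sox9 and Lrig1 were not analysed here. The RNA came from colonic crypts, the epithelial pits of the gut wall, of Sprague Dawley rats at 14 weeks of age, 1 library from the distal and 1 from the proximal colon. Each library pooled 7 rats, and the labels name no treatment. With 1 library per region, no replicate stands behind the differences, which are between these 2 libraries alone; levels of each library are given as levels in distal or proximal crypts. The 5 chromatin immunoprecipitation libraries of the series were not analysed here.

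Crypt stem cells sit at the crypt base and are kept there by Wnt ligands, which stabilise beta-catenin and let it act with TCF/LEF factors on target genes. R-spondins bound to LGR receptors raise the response by clearing the ubiquitin ligases RNF43 and ZNRF3 from the cell surface, while AXIN2 feeds back to destroy beta-catenin. EPHB2 and EPHB3, set against ephrin-B ligands higher up, sort cells along the crypt axis.

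The 8 genes did not move as a block. Cd44 and Olfm4 were lower in distal crypts, Ascl2 was higher there, and Lgr5 and Ephb2 stood at close to the same level in both. Axin2 and Rnf43 were lower and Ephb3 higher in distal crypts by less than 2-fold. On the log2((distal FPKM + 1)/(proximal FPKM + 1)) scale, on which low genes look closer together than they are, 1 member was at least 2-fold higher and 2 were at least 2-fold lower in distal crypts. Among the 9847 genes with at least 1 FPKM in 1 library, called measured here, 3.71% were at least 2-fold higher and 3.91% at least 2-fold lower, 7.62% in all. The remaining 5 members were less than 2-fold apart. In the distal library 6 of the 8 members had the lower FPKM, against 38.6% of all measured genes. The median log2 ratio was -0.33 over the members and 0.09 over all measured genes.

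**Figure D1:**
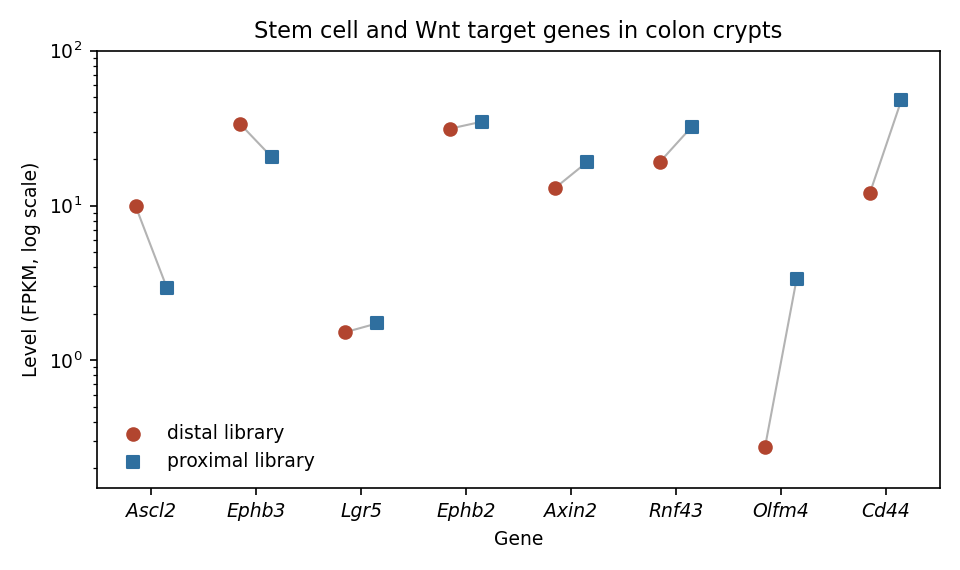
Level of each gene in FPKM on a log axis, in distal crypts (circles) and proximal crypts (squares), 1 library each, ordered by log2 ratio. Ascl2 and Ephb3 lie higher in distal crypts, and Olfm4 and Cd44 show the largest gaps the other way.

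The authors' deposited table gives a fold change and a q-value for each gene. Its test statistic implies a standard error, which comes from the model behind that table and does not measure variation between rats. By that table, 2 of the 8 members were called lower in distal crypts and 0 higher. Among the 10099 genes it tested, 5.43% were called, 2.73% as higher and 2.69% as lower in distal crypts. At an unadjusted p under 0.05 in the authors' deposited table, 2 members were higher in distal crypts, Ascl2 and Ephb3, and 3 were lower, Olfm4, Cd44 and Rnf43. Of all genes that table tested, 6.52% were higher and 5.80% lower at that p, 12.3% in all.

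Stretches around the annotated gene starts are shown for Cd44 and Olfm4, the members called lower in distal crypts, for Ascl2, the member furthest towards the distal library, and for Axin2, the feedback target. RefSeq sequences of the GRCr8 build, 250 bases before to 50 after the start, were matched for 7 of the 8 genes, and not for Lgr5. The TCF/LEF core CTTTGA was searched on both strands, and capitals mark its matches. The windows are chr3:109699375-109699674 (minus strand) for Cd44, chr15:61815981-61816280 (plus strand) for Olfm4, chr1:207580807-207581106 (minus strand) for Ascl2 and chr10:94398535-94398834 (plus strand) for Axin2, all printed 5′ to 3′ along the gene.
Cd44: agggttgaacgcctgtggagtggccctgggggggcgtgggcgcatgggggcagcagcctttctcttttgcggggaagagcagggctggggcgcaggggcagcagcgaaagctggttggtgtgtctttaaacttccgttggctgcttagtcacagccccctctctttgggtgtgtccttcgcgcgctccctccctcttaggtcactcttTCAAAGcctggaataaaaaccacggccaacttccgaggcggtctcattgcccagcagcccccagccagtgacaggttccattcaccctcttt
Olfm4: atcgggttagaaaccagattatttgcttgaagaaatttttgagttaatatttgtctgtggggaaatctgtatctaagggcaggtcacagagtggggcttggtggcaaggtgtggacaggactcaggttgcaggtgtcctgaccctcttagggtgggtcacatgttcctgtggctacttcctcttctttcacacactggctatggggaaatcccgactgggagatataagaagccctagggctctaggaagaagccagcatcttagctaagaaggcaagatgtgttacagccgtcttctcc
Ascl2: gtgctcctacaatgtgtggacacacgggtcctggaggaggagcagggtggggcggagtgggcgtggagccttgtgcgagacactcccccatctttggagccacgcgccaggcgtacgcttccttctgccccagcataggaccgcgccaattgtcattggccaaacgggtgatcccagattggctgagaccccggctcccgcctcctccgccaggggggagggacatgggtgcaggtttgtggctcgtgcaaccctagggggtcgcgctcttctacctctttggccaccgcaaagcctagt
Axin2: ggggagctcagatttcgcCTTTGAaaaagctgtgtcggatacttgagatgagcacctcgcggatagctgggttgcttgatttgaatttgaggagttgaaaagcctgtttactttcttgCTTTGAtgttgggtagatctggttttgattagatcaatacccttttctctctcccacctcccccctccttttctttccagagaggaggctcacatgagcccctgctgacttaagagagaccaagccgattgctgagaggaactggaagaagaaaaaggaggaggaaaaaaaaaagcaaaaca
Axin2 held 2 matches on the strand of the gene, 232 and 132 bases before the start, and the one nearer the start also read CTTTGAT, a longer form that contains the first. Cd44 held 1 match on the other strand, 42 bases before the start. The windows of Olfm4, Ascl2, Ephb2, Ephb3 and Rnf43 held no CTTTGA. Among 33469 promoter windows of this length, 16.1% held CTTTGA and 3.63% held CTTTGAT. A match is a run of letters and not a site shown to be bound, and which start these cells use was not measured. The 2 genes with one, Axin2 and Cd44, had the lower level in distal crypts, and so had 3 of the 5 without one, Olfm4, Ephb2 and Rnf43. In base composition the windows differed widely: Ephb2 had 69.3% G and C with 29 CG pairs and Ascl2 64.0% with 18, while Rnf43 had 43.0% with 4 and Olfm4 48.3% with 3, against medians of 51.7% and 7 over all windows.

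Among the stem cell markers, Lgr5 encodes the R-spondin receptor by which these cells are best known. By the rn4 build, to which the positions below also refer, Lgr5 lies on chromosome 7 at 54737745 to 54876664. Lgr5 stood at 1.52 FPKM in distal crypts and 1.73 FPKM in proximal crypts. It was a low gene in both, above 8.20% of measured genes in distal crypts and 7.79% in proximal crypts. In the authors' deposited table its log2 fold change was -0.18 (implied standard error 0.63) and q was 1. The implied 95% interval, -1.42 to 1.06, holds differences of more than 2-fold in both directions, so a change of that size was not excluded.

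Ascl2, a transcription factor that holds crypt base cells in the stem cell state in the mouse, showed the reverse order. Ascl2 lies on chromosome 1 at 203242129 to 203244480. It stood at 9.95 FPKM in distal crypts, against 2.93 FPKM in proximal crypts, 3.40-fold higher in distal crypts. The log2 ratio of 1.48 was matched or passed, in either direction, by 3.45% of measured genes. In the authors' deposited table its log2 fold change was 1.77 (implied standard error 0.59) and q was 0.0522, so it was not called. The largest q that table called was 0.0495.

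Olfm4 encodes olfactomedin 4, a secreted glycoprotein that marks crypt base cells of the human gut and of the mouse small intestine. Olfm4 lies on chromosome 15 at 61267802 to 61290288. It stood at 0.276 FPKM in distal crypts and 3.33 FPKM in proximal crypts, and was the lowest of the 8 members in distal crypts. In the authors' deposited table its log2 fold change was -3.59 (implied standard error 0.71, implied 95% interval -4.99 to -2.20) and q was 3.36e-05. No plain fold is given, because the distal value may be near the level of a few reads. For olfactory receptor genes of about 943 bases, 3 reads were estimated at 0.339 FPKM in distal crypts. Transcript lengths are not in the table, and longer genes reach a given read number at a lower FPKM.

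Ratios between members within a library do not depend on how the libraries were scaled. The level of Ascl2 was 6.55 times that of Lgr5 in distal crypts and 1.70 times in proximal crypts. The difference between the log2 fold changes of this pair in the authors' deposited table was 1.95, with an implied 95% interval of 0.25 to 3.65. No such ratio is given for Olfm4, whose distal value may be near the level of a few reads. Intervals of differences between genes treat their errors as independent.

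The feedback regulators Axin2 and Rnf43 both had the lower value in distal crypts. Axin2, a scaffold of the beta-catenin destruction complex and a standard readout of Wnt signalling, lies on chromosome 10 at 98294466 to 98321828. Axin2 stood at 13.0 FPKM in distal crypts, against 19.0 FPKM in proximal crypts, 1.46-fold lower in distal crypts. Its log2 fold change in the authors' deposited table was -0.54 (implied standard error 0.32) and q was 0.568.

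Rnf43, the ubiquitin ligase that removes Wnt receptors from the cell surface, lies on the same chromosome at 75957792 to 76027392. It stood at 19.2 FPKM in distal crypts, against 32.2 FPKM in proximal crypts, 1.68-fold lower in distal crypts. In the authors' deposited table its log2 fold change was -0.74 (implied standard error 0.32, implied 95% interval -1.37 to -0.12) and q was 0.211. Neither gene was called. The level of Rnf43 was 1.47 times that of Axin2 in distal crypts and 1.69 times in proximal crypts, and the interval of the difference between their log2 fold changes, -1.08 to 0.68, included 0.

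Ephb2 and Ephb3, receptors for ephrin-B ligands, were among the more abundant members in both libraries. Ephb2 lies on chromosome 5 at 155423035 to 155605384 and stood at 31.4 FPKM in distal crypts, against 34.8 FPKM in proximal crypts. Its log2 fold change in the authors' deposited table was -0.15 (implied standard error 0.29, implied 95% interval -0.72 to 0.43) and q was 1. With the libraries scaled as deposited, this interval does not reach a 2-fold difference in either direction. The log2 ratio of Ephb2 was -0.142 on the FPKM + 1 scale, and -0.585 with the distal library rescaled to the epithelial markers. The interval takes no account of such rescaling.

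Ephb3, its close relative, lies on chromosome 11 at 82027632 to 82046332 and stood at 33.5 FPKM in distal crypts, against 20.5 FPKM in proximal crypts, 1.63-fold higher in distal crypts. Its log2 fold change in the authors' deposited table was 0.71 (implied standard error 0.30, implied 95% interval 0.13 to 1.29), q was 0.191 and it was not called. The level of Ephb3 was 1.07 times that of Ephb2 in distal crypts and 0.590 times in proximal crypts. The difference between their log2 fold changes was 0.85, with an implied 95% interval of 0.04 to 1.67, so that its lower end lay close to 0.

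Cd44 encodes a hyaluronan receptor that Wnt signalling induces in crypt cells and that lymphocytes and other blood cells also carry. Cd44 lies on chromosome 3 at 88022962 to 88110352. It stood at 12.1 FPKM in distal crypts and 48.1 FPKM in proximal crypts, 3.97-fold lower in distal crypts. It was the most abundant member in proximal crypts, above 82.8% of measured genes, and ranked 5 of 8 in distal crypts, above 42.6%. In the authors' deposited table its log2 fold change was -1.99 (implied standard error 0.31, implied 95% interval -2.60 to -1.38) and q was 1.94e-08. Its log2 ratio of -1.91 was matched or passed, in either direction, by 1.91% of measured genes. Values are given per gene, so the splice forms of Cd44 were not told apart.

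**Figure D2:**
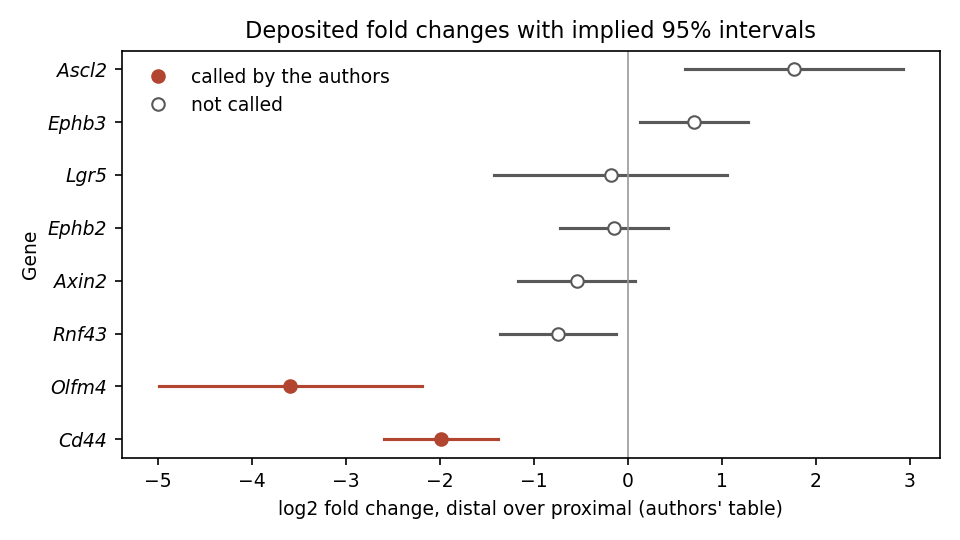
Log2 fold change of distal over proximal from the authors' deposited table (points) with the 95% interval that its test statistic implies (lines), 1 library per region. The filled points of Cd44 and Olfm4 are the calls of that table, and the intervals of Lgr5, Ephb2 and Axin2 include 0.

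Markers of other cells moved with some of these genes. Of 7 B cell markers listed, 5 were in the table, and their summed level was 1.11 FPKM in distal crypts, against 26.3 FPKM in proximal crypts; all 5 were at least 2-fold lower in distal crypts. The 9 T cell markers summed to 13.9 FPKM in distal crypts, against 21.8 FPKM in proximal crypts. Of these, 6 were measured, 5 of them lower in distal crypts, with a median log2 ratio of -0.69. Over all measured genes, 38.6% were lower in distal crypts and the median was 0.09. On the log2(FPKM + 1) scale, which draws such low genes together, 1 of the 6 was at least 2-fold lower. Of all measured genes, 3.91% were at least 2-fold lower. None of these lymphocyte markers was at 0. The part of such cells in the difference of Cd44 was not tested. In bulk RNA, fewer cells of a type and less RNA per cell cannot be told apart. Of the 11 epithelial markers, 10 were measured and 9 had the higher level in distal crypts, where 38.6% of all measured genes had the lower level. Among the 10 the median log2 ratio was 0.46 and none was at least 2-fold apart, beside 0.09 and 7.62% for all measured genes. Dcn and Lum, fibroblast markers, were listed at 0 in both libraries, as was the epithelial marker Cldn3, so a listed 0 is not read as absence. The fibroblast markers summed to 4.71 FPKM in distal crypts, against 5.68 FPKM in proximal crypts, and among them Pdgfrb stood at 0.410 FPKM in distal crypts, against 2.50 FPKM in proximal crypts. Summed levels were 8.86 FPKM in distal crypts and 5.35 FPKM in proximal crypts for smooth muscle markers, of which Des held 2.91 and 0.0398 FPKM in distal and proximal crypts. The sums were 24.6 and 8.90 FPKM in distal and proximal crypts for endothelial markers, of which Esam held 22.9 and 6.54 FPKM, and 129 and 115 FPKM for myeloid markers, of which Cd14 held 116 and 101 FPKM. Of these named markers, the authors' deposited table called Pdgfrb lower and Des and Esam higher in distal crypts. Other markers of these lists did not all follow. Of the 2 endothelial markers measured, 1 was higher and 1 lower in distal crypts, and the same held for the 2 fibroblast markers measured. Of the 5 myeloid markers measured, 2 were higher and 3 lower in distal crypts. A sum is therefore not read as a shift of its whole list. Markers of neurons and glia summed to 2.31 FPKM in distal crypts and 3.98 FPKM in proximal crypts. Their part in the values of the members was not tested.

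Ordered by level, the members in distal crypts ran Ephb3, Ephb2, Rnf43, Axin2, Cd44, Ascl2, Lgr5 and Olfm4, and in proximal crypts Cd44, Ephb2, Rnf43, Ephb3, Axin2, Olfm4, Ascl2 and Lgr5. The largest move in rank was that of Cd44. Several neighbours in these orders were close, such as Ephb3 and Ephb2 at 33.5 and 31.4 FPKM in distal crypts, and with 1 library no spread says whether such neighbours differ. The summed level of the 8 genes was 121 FPKM in distal crypts, against 163 FPKM in proximal crypts. Of these sums Cd44 alone held 12.1 FPKM in distal and 48.1 FPKM in proximal crypts. Ascl2 and Ephb3 had the higher level in distal crypts, so the sum is not read as a shift of the whole group.

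**Figure D3:**
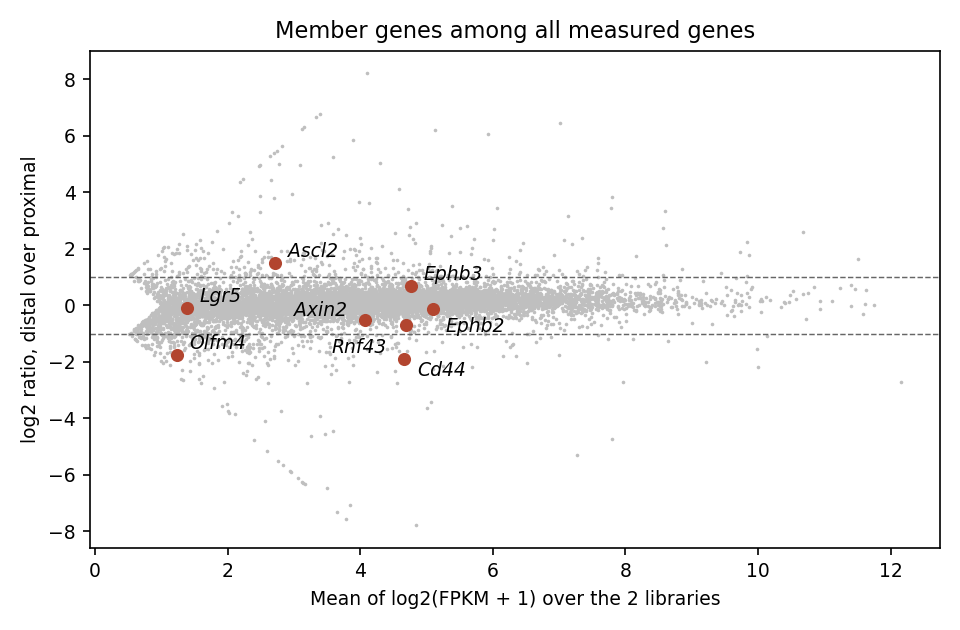
Log2 ratio of distal over proximal against the mean log2(FPKM + 1) of the 2 libraries for all 9847 measured genes (grey) and the 8 members (red); dashed lines mark 2-fold. Ascl2 lies above the upper line, Cd44 and Olfm4 below the lower one, and the other 5 members between them.

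Of 20 other genes of the crypt base in the table, 16 were measured. Of these, 1 was at least 2-fold apart, a share near the 7.62% of all measured genes, and the median log2 ratio was 0.045, which was below 0 under all 3 rescalings of the distal library. Smoc2, a matrix protein gene of the Lgr5 cell signature in the mouse, stood at 18.2 FPKM in distal crypts, against 10.9 FPKM in proximal crypts. Hopx stood at 54.4 and 51.0 FPKM and Bmi1 at 13.9 and 10.4 FPKM in distal and proximal crypts, both markers proposed for reserve stem cells in the mouse. The 1 gene at least 2-fold apart was Clu, a marker of regenerating crypt cells in the mouse, at 1.59 FPKM in distal crypts, against 5.25 FPKM in proximal crypts, and its locus overlaps that of another gene. Of the 18 it tested, the authors' deposited table called 0, beside 5.43% of all genes it tested. An unadjusted p under 0.05 in that table was held by 5 of the 18, beside 12.3% of all genes it tested.

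Wnt targets outside the group went both ways. Of 23 in the table, 15 were measured, with a median log2 ratio of -0.08. In distal crypts 1 was at least 2-fold higher and 1 at least 2-fold lower, beside 3.71% and 3.91% of all measured genes. Myc, a transcription factor that drives growth, stood at 20.6 FPKM in distal crypts, against 24.3 FPKM in proximal crypts. Ccnd1, a cyclin of the G1 phase, stood at 132 FPKM in distal crypts, against 111 FPKM in proximal crypts. Jun, which is also an immediate early gene, stood at 159 FPKM in distal crypts, against 64.8 FPKM in proximal crypts, and was called in the authors' deposited table. Abcb1a, a drug efflux pump whose locus overlaps another, stood at 13.9 FPKM in distal crypts, against 31.7 FPKM in proximal crypts, and was not called. Of the members themselves, 5 were at least 1.5-fold apart, since Rnf43 and Ephb3 also passed that limit, against 17.3% of all measured genes.

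Of 23 genes of the beta-catenin machinery in the table, 21 were measured and 0 were at least 2-fold apart, beside 7.62% of all measured genes, with log2 ratios from -0.55 to 0.48 and a median of -0.02. The authors' deposited table called 0 of them, with 0 at an unadjusted p under 0.05, beside 5.43% and 12.3% of all genes it tested. Ctnnb1, which encodes beta-catenin, stood at 196 FPKM in distal crypts, against 206 FPKM in proximal crypts, and Apc, its negative regulator, at 11.6 and 12.9 FPKM in distal and proximal crypts. Tcf7l2, the main TCF factor of the gut epithelium, stood at 36.6 FPKM in distal crypts, against 25.9 FPKM in proximal crypts.

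Of the R-spondin receptors, Lgr4 stood at 67.6 FPKM in distal crypts, against 64.8 FPKM in proximal crypts, far above Lgr5 in both. The ligand gene Rspo3 was listed at 0 in both libraries, and Rspo1 and Rspo2 stood at or under 0.121 FPKM in both. Lgr6 and Znrf3 were not analysed here. The measured ephrin-B ligands of Ephb2 and Ephb3 were less than 2-fold apart. Efnb1 stood at 105 FPKM in distal crypts, against 91.9 FPKM in proximal crypts, with a locus that overlaps another, and Efnb2 at 40.7 and 43.9 FPKM in distal and proximal crypts. Of the other Eph receptors and ligands 6 were measured, 0 of them at least 2-fold apart on the log2(FPKM + 1) scale, beside 7.62% of all measured genes. By plain FPKM, Ephb6 was 2.27-fold higher in distal crypts, at 2.71 FPKM, against 1.19 FPKM in proximal crypts. The authors' deposited table did not call it (q 0.359). Of the 6 genes tested there, 1 had an unadjusted p under 0.05, beside 12.3% of all genes tested. The median log2 ratio of the 6 was 0.31, or -0.060 with the distal library rescaled to the epithelial markers.

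**Figure D4:**
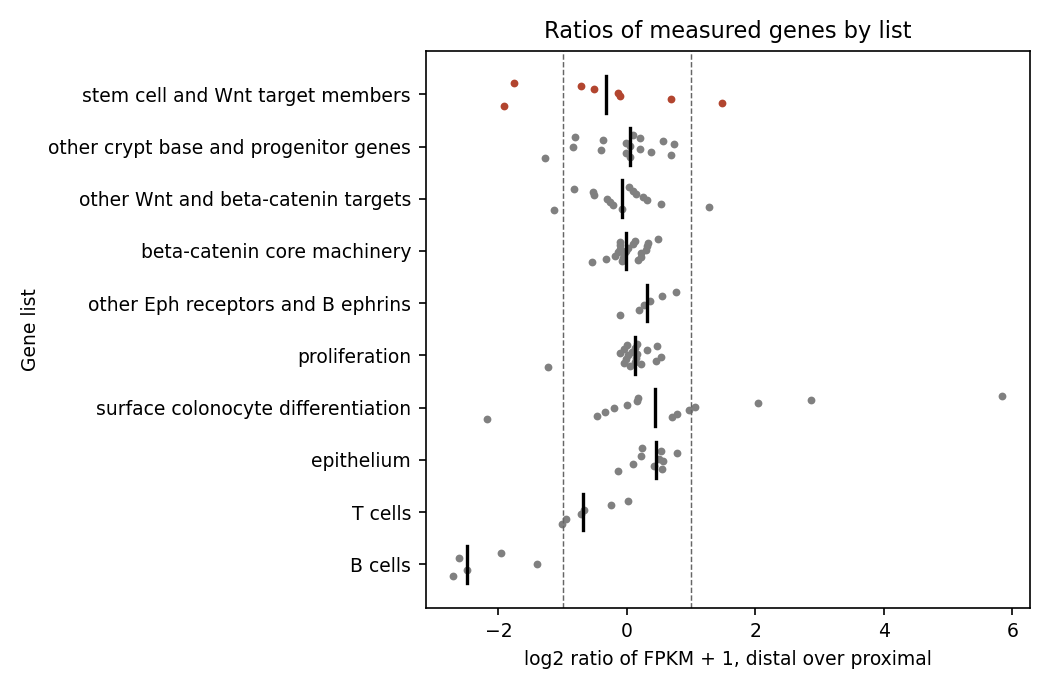
Log2 ratio of distal over proximal on the FPKM + 1 scale for each measured gene of each list (points), with the list's median (black bar) and dashed lines at 2-fold. The members (red) spread from -1.91 to 1.48, while the 21 measured genes of the beta-catenin machinery lie between -0.55 and 0.48.

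The outermost members on the log2(FPKM + 1) scale were Ascl2 and Cd44, while by the deposited log2 fold change Olfm4 (-3.59) lay beyond Cd44 (-1.99). The nearest genes to Ascl2 and Cd44, among 173 of the compared lists, were found by Euclidean distance in log2(FPKM + 1) over both libraries. For Ascl2 these were Ceacam1 (distance 0.575; 6.71 FPKM in distal crypts, against 3.74 FPKM in proximal crypts), Ccnb2 (0.708) and C1qc (0.962). For Cd44 they were Tyms (0.539; 17.7 FPKM in distal crypts, against 42.9 FPKM in proximal crypts), Abcb1a (0.615) and Plaur (1.01). With 2 libraries this measures likeness of level and nothing more.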

How the data were processed

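RNA of colon crypts was measured in 2 libraries, distal and proximal, and groups followed the sample titles. Per the submitters' processing notes, CASAVA, TopHat2 and the build rn4 go with these samples. The authors' values were read as FPKM, because they are not whole and their sums differ (463340 for distal, 412814 for proximal crypts). Which program made the table, how the libraries were scaled and how many reads they held were not given in the sources used here. Per the file headers, the deposited table also holds a log2 fold change of distal over proximal, a test statistic, a p-value and a q-value for each gene. The p-value equals the normal tail of the statistic to within 2.76e-06, so the deposited log2 fold change divided by that statistic, without its sign, was used as the implied standard error, with normal 95% intervals.

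Of 16492 rows, 16468 were kept, leaving out those marked as failed or too low in data and 1 repeated gene. Positions start at 1. Loci that overlap another gene's, 1297 in all and 0 among the members, can hold its reads. A single read was valued from olfactory receptor genes at 0 in the other library, 4 genes for the distal library. Those at the commonest p-value of the authors' deposited table were assumed to hold 1 read. No test of the regions was made, with 1 library each. Values were computed with Python 3.11.15, pandas 2.3.3 and numpy 2.4.6. The counting was tested on simulated data in which only genes of higher level were changed. That simulation did not cover levels as low as those of Ascl2 and Olfm4 in proximal crypts. Members and lists were chosen with earlier results of these data known. Named were all members, up to 5 genes per list at least 2-fold apart, and a fixed set of pathway genes. Cd14, Dcn, Lum, Cldn3, Rspo1, Rspo2, Ephb6, Pcna, Top2a, Krt20 and Cdkn1a were added after their values were seen. Alternatives were pseudocounts of 0.1 and 5 FPKM, 3 rescalings, a minimum of 5 FPKM or none, overlapping loci left out, a 1.5-fold limit and the authors' calls.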

Additional observations from a re-analysis of the deposited data

How the results depend on the processing

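The direction of all 8 members held under both other pseudocounts and all 3 rescalings. The log2 ratio of Cd44 ran from -2.33 to -1.64, that of Olfm4 from -3.19 to -0.66 and that of Ascl2 from 0.92 to 1.73. The range was -1.15 to -0.62 for Rnf43 and 0.24 to 0.70 for Ephb3. It was -0.933 to -0.413 for Axin2, -0.585 to -0.127 for Ephb2 and -0.373 to -0.045 for Lgr5. Axin2, Ephb2 and Lgr5 had their lowest values under the epithelial rescaling. Rescaling the distal library to the median of all genes, to equal upper quartiles or to the epithelial markers shifted it by -0.09, -0.17 and -0.46 on the log2 scale. Rnf43 passed 2-fold, and the median of the members was -0.76, only under the epithelial rescaling. The members at least 2-fold higher in distal crypts, 1 as reported, were 0 with a pseudocount of 5 FPKM and by the authors' call and 2 at 1.5-fold. Those lower, 2 as reported, were 1 with a pseudocount of 5 FPKM or with a minimum of 5 FPKM, which leaves out Olfm4.

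With the epithelial rescaling the medians were -0.41 for other crypt base genes, -0.44 for the beta-catenin machinery, -0.32 for proliferation, 0.009 for surface differentiation and -0.060 for other Eph genes. The median of other crypt base genes was -0.048 and -0.125 under the rescalings to the median and to upper quartiles. Other crypt base genes at least 2-fold lower in distal crypts were 3 with that rescaling and 0 with a pseudocount of 5 FPKM or without overlapping loci. Other Wnt targets at least 2-fold higher were 0 with that rescaling, and those lower were 2 with it or a 0.1 FPKM pseudocount, and 0 with a 5 FPKM pseudocount or without overlapping loci. Of the other Eph genes, 1 was at least 2-fold higher with a pseudocount of 0.1 FPKM. The implied standard errors of the members were largest for Olfm4 (0.71) and Lgr5 (0.63). No paired analysis was possible because each region had 1 library, and no library could be left out.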

Other observations

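Of 19 genes of cycling cells, all measured, 1 was at least 2-fold apart, a share near the 7.62% of all measured genes, and the median log2 ratio was 0.12. Tyms, the thymidylate synthase gene, stood at 17.7 FPKM in distal crypts, against 42.9 FPKM in proximal crypts, and was called in the authors' deposited table. Pcna stood at 78.2 FPKM in distal crypts, against 80.8 FPKM in proximal crypts, and Top2a at 22.3 and 19.9 FPKM in distal and proximal crypts.

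Genes of the differentiated surface cells at the other end of the crypt went both ways. Of 14 measured, 4 were at least 2-fold higher in distal crypts and 1 was at least 2-fold lower, beside 3.71% and 3.91% of all measured genes. The median log2 ratio was 0.43. The 4 became 3 under all 3 rescalings, without Klf4, which the authors' deposited table did not call. Higher in distal crypts were Slc37a2 (111 FPKM in distal crypts, against 0.961 FPKM in proximal crypts), the water channel gene Aqp8 (27.5 and 2.93 FPKM in distal and proximal crypts), the peptidase gene Dpp4 (67.0 and 15.5 FPKM in distal and proximal crypts) and the transcription factor gene Klf4 (356 and 171 FPKM in distal and proximal crypts). Tmigd1 was lower, at 23.1 FPKM in distal crypts, against 108 FPKM in proximal crypts. Of the 14 genes it tested here, the authors' deposited table called 4 higher and 1 lower in distal crypts. The shares were 2.73% and 2.69% of all genes it tested. Its calls included Cdkn1a, less than 2-fold apart, at 105 FPKM in distal crypts, against 53.5 FPKM in proximal crypts. Krt20, a keratin of surface cells, stood at 581 FPKM in distal crypts, against 522 FPKM in proximal crypts.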
